A study of Rattus norvegicus with 20 samples.

Results

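Cyclic nucleotide phosphodiesterases of the brain were examined in the nucleus accumbens, a region of the ventral striatum in the reward circuit, of rats that self-administered cocaine. The 9 genes are the 4 cAMP-specific genes of the Pde4 family (Pde4a, Pde4b, Pde4c and Pde4d) and Pde1a, Pde2a, Pde7b, Pde8b and Pde9a. They were taken by symbol from a deposited table of 17296 genes, and all 9 were found there and passed the filter on low counts, as did 12846 genes in all. The set was proposed with results of these data in view and was selected on measured levels: Pde4a was known to be higher in rats given antibiotics than in rats given water. Values of the 9 genes in that comparison are therefore a description and carry no test.

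Phosphodiesterases end cyclic nucleotide signals by hydrolysing cAMP, cGMP or both. In the striatum, D1 dopamine receptors raise cAMP through adenylyl cyclase and D2 receptors lower it, and the kinase PKA then phosphorylates targets that include the transcription factor CREB. The isoenzymes differ in substrate and in control: Pde4, Pde7 and Pde8 enzymes hydrolyse cAMP, Pde9 enzymes hydrolyse cGMP, and Pde1 and Pde2 enzymes hydrolyse both.

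The 20 libraries were made from male Sprague-Dawley rats aged 7 to 9 weeks, kept 2 per cage. All of them self-administered cocaine, so that every group carries that exposure. What the rats drank defined 4 groups: 5 rats had water (H2O), 4 had antibiotics (Abx), 6 had short-chain fatty acids, which gut bacteria make by fermentation (SCFA), and 5 had both together (Abx_SCFA). Each library is labelled as a separate rat, but the labels do not say which rats shared a cage. The H2O and Abx rats carry numbers in the 200s and 300s and the SCFA and Abx_SCFA rats numbers in the 400s, so wherever a group with fatty acids is set against one without, fatty acids and number series cannot be told apart.

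Totals ran from 17525358 to 25731636 counts per library. At that depth the lowest of the 9 genes, Pde4c, had 57 to 165 counts in a library, and the other 8 had at least 355. Markers of medium spiny neurons, the principal neurons of the accumbens, were all present (11 of 11), with a summed level of 6885 to 9391 CPM (counts scaled to library size) in H2O, 6464 to 9452 in Abx, 4001 to 8774 in SCFA and 7257 to 8765 in Abx_SCFA. Markers of cortical excitatory neurons, a cell type of neighbouring tissue, were also present: 9 of 10 listed genes were in the table, and their sum ran from 43.2 to 367 CPM in H2O, 102 to 695 in Abx, 138 to 1487 in SCFA and 215 to 486 in Abx_SCFA. No defining marker was at 0 throughout a group, although Neurod1 was at 0 in single libraries. Against H2O, 9 of 9 cortical markers had positive fold changes in Abx (median log2 fold change 2.10), SCFA (2.64) and Abx_SCFA (1.76), and 0 of them passed an adjusted p of 0.05 by edgeR. SCFA replicates 2 and 5 had the lowest medium spiny neuron scores of all libraries, 8.17 and 8.11, and the highest cortical scores, 5.07 and 5.86. A score is the mean log2 CPM of a marker list. Glial and vascular markers moved as well: against H2O, 9 of 9 oligodendrocyte markers had negative fold changes in Abx (median -0.71), SCFA (-0.18) and Abx_SCFA (-0.42), and 7 of 7 astrocyte markers (median -0.12) and 5 of 5 endothelial markers (median -0.17) had them in Abx, with 0 past the adjusted threshold. Summed oligodendrocyte markers ran from 14962 to 22587 CPM in H2O, 6721 to 14069 in Abx, 6236 to 24238 in SCFA and 11535 to 20566 in Abx_SCFA. Against H2O, 5 of 5 endothelial markers had positive fold changes in SCFA (median 0.045) and in Abx_SCFA (median 0.16). Of the 7 astrocyte markers, 4 had positive fold changes in SCFA and 2 in Abx_SCFA. What part these marker differences have in the phosphodiesterase and cyclase differences was not tested.

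Pde4a has several alternative promoters, and the counts sum over all transcripts of a gene. The 120 bases before each of the 4 Pde4a starts in the RefSeq promoter table (build GRCr8, plus strand, 5′ to 3′) are printed here. The counts were made on another build, Rnor_6.0, with an annotation that is not given. Whether they cover the transcripts of these starts is therefore not known. Capitals mark TGACG, the core of the cAMP response element bound by CREB, or its reverse complement CGTCA.
Pde4a chr8:27966867-27966986: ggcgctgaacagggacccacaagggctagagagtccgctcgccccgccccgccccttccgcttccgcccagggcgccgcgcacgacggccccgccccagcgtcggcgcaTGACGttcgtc
Pde4a chr8:27982700-27982819: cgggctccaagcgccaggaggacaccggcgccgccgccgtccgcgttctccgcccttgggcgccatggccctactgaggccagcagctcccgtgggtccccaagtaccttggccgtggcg
Pde4a chr8:27999293-27999412: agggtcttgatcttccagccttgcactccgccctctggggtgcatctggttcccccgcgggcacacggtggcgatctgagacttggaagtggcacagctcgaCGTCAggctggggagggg
Pde4a chr8:28012617-28012736: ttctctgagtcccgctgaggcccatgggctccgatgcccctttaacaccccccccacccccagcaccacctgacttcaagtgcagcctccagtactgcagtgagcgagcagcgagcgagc

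TGACG stands 11 bases before the start in the first of these windows and 18 bases before it, on the other strand, in the third. That table matched 6 of the 9 genes with 15 starts. On either strand of the 250 bases before the start, TGACG was found in 2 of 4 Pde4a windows, in 2 of 5 Pde4d windows and in no window of Pde1a, Pde2a, Pde4b or Pde8b, which is 4 of 15 windows against 18.2% of 33469 windows of all genes. The full element TGACGTCA, which contains TGACG, was found in 0 of the 15 windows and in 1.59% of all windows. The GC box GGGCGG was found in 6 of 15 windows and in 30.5% of all. These matches describe the letters only, and the counts do not say which start was used.

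**Figure D1:**
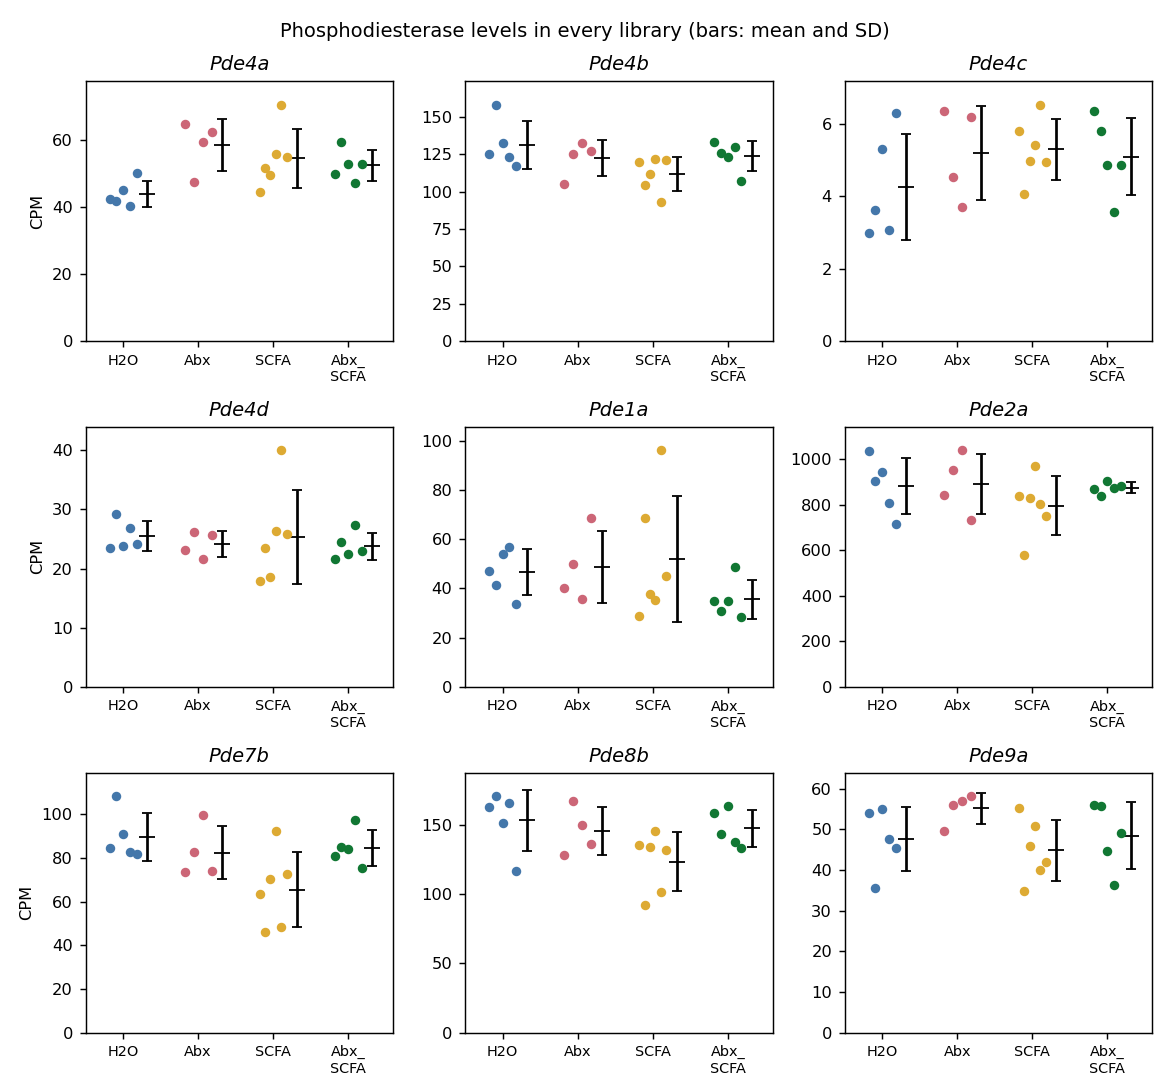
Level of each of the 9 genes in CPM (vertical axis, from 0) in every library of the 4 drinking groups (horizontal axis), with 1 point per library and a bar for the mean and SD. Pde4a lies lowest in H2O, and Pde1a has its widest spread in SCFA, where 1 library reaches 96.0 CPM.

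Pde4a, a cAMP-specific enzyme inhibited by rolipram, stood at 42.4, 41.7, 45.0, 40.1 and 49.9 CPM in the H2O libraries, a mean of 43.8 ± 3.85 (SD, n = 5). The Abx libraries had 64.7, 47.3, 59.3 and 62.2 CPM (58.4 ± 7.71, SD, n = 4). In SCFA the lowest library had 44.3, the median was 53.1 and the highest, replicate 5, had 70.4 CPM (54.4 ± 8.87, SD, n = 6). The H2O libraries were low and the Abx libraries high, except for Abx replicate 2, which lay below H2O replicate 5 so that the groups overlapped. With antibiotics and fatty acids together the levels were 49.9, 59.2, 52.6, 47.0 and 52.9 CPM (52.3 ± 4.53, SD, n = 5), with a mean between those of H2O and Abx. In the order of group means, H2O lay below Abx_SCFA by 8.47 CPM, more than the larger SD of that pair, while Abx_SCFA, SCFA and Abx followed with gaps smaller than their SD.

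The fitted Pde4a level was 1.33-fold higher in Abx than in H2O, a log2 difference of 0.41 ± 0.11 (SE). Within the rats numbered in the 200s, 2 Abx libraries averaged 56.0 CPM and 2 H2O libraries 42.0. Within the 300s, 2 Abx libraries averaged 60.7 CPM and 3 H2O libraries 45.0. With the series as a term the log2 difference was 0.43 ± 0.10. These values come from the libraries by which Pde4a was known and are no separate support. Among all 12846 genes, 2.46% had groups that did not overlap in Abx vs H2O, and among the 9 phosphodiesterases 0 did.

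The cortical score moved with Pde4a. It averaged 1.59 ± 1.36 (SD, n = 5) in H2O and 3.65 ± 0.99 (SD, n = 4) in Abx. H2O replicate 5, with the highest Pde4a of its group, had the highest cortical score there, 3.73, and Abx replicate 2, with the lowest Pde4a, had the lowest, 2.33. Not every library followed. H2O replicate 3 had the lowest score of its group, 0.27, but 45.0 CPM of Pde4a, above H2O replicates 1, 2 and 4. Abx_SCFA replicate 4 had the highest score of its group, 4.22, and its lowest Pde4a, 47.0 CPM. Across the 20 libraries Pearson's r between Pde4a and the score was 0.77 and Spearman's rho was 0.75, given without a test because they include the libraries by which Pde4a was known. Among the 11 libraries of the 400s, r was 0.61 (permutation p = 0.0487, adjusted p = 0.0674 over 18 relations) and rho was 0.41, and without SCFA replicates 2 and 5 r was 0.26. Fitted with the score in the model, the Pde4a log2 difference of Abx from H2O was 0.20 ± 0.11.

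The antibiotic contrast can be examined again in Abx_SCFA vs SCFA, whose libraries took no part in the group levels of Abx vs H2O. All 20 libraries were fitted in 1 model, so both contrasts share its estimate of the spread. The set of genes was still proposed with results of these data in view. In Abx_SCFA vs SCFA, Pde4a differed by -0.06 ± 0.10 in log2 (95% interval -0.27 to 0.15, edgeR adjusted p = 0.92). The interaction, which is the antibiotic difference with fatty acids less that without, was -0.47 ± 0.15 for Pde4a, 0.49 ± 0.21 for Pde7b and 0.25 ± 0.13 for Pde4b and is given without a test because it contains Abx vs H2O. SCFA vs H2O gave 0.31 ± 0.10 (95% interval 0.10 to 0.52, adjusted p = 0.247) and Abx_SCFA vs H2O gave 0.25 ± 0.11 (95% interval 0.03 to 0.48, adjusted p = 0.815). These 2 comparisons and Abx vs H2O share the H2O libraries by which Pde4a was known. Their like direction is therefore not independent, and their p-values for Pde4a are no separate support. Fitted with the cortical score in the model, the 2 differences came to 0.06 ± 0.11 and 0.06 ± 0.10.

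Pde4b, a cAMP-specific enzyme also inhibited by rolipram, lay between 117 and 158 CPM in H2O (131 ± 16.1, SD, n = 5) between 105 and 132 in Abx (122 ± 12.03, SD, n = 4). SCFA libraries ran from 93.3, in replicate 5, to 122 CPM (112 ± 11.5, SD, n = 6), and Abx_SCFA libraries from 107 to 133 (124 ± 10.1, SD, n = 5). All groups overlapped. Its log2 difference was -0.23 ± 0.09 in SCFA vs H2O (adjusted p = 0.264), 0.15 ± 0.09 in Abx_SCFA vs SCFA (adjusted p = 0.737) and -0.10 ± 0.10 in Abx vs H2O, where no test applies. Without SCFA replicates 2 and 5 the first of these was -0.14. None passed the threshold where a test was made.

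Pde4d, another cAMP-specific enzyme of the family, averaged 25.5 ± 2.49 CPM (SD, n = 5) in H2O, 24.2 ± 2.15 (n = 4) in Abx, 25.3 ± 8.0 (n = 6) in SCFA and 23.8 ± 2.27 (n = 5) in Abx_SCFA. The wide SCFA spread came from replicate 5, at 40.0 CPM, while the group median was 24.6 and the lowest library had 17.9. Without SCFA replicates 2 and 5 the log2 difference of SCFA from H2O was -0.20 ± 0.11, against -0.0066 ± 0.15 with them. Pde4c, the least counted gene of the family, averaged 4.25 ± 1.47 CPM (n = 5) in H2O, 5.196 ± 1.29 (n = 4) in Abx, 5.29 ± 0.838 (n = 6) in SCFA and 5.09 ± 1.06 (n = 5) in Abx_SCFA. Its log2 difference from H2O was 0.30 ± 0.22 in Abx, 0.32 ± 0.20 in SCFA (adjusted p = 0.516) and 0.26 ± 0.21 in Abx_SCFA (adjusted p = 0.839). The 95% interval of each includes 0. When 1 library was left out, the Abx value fell as low as 0.19, by omitting Abx replicate 1, and reached 0.49 by omitting H2O replicate 5. The Abx_SCFA value was 0.16 when H2O replicate 1 was omitted and 0.45 when H2O replicate 5 was.

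**Figure D2:**
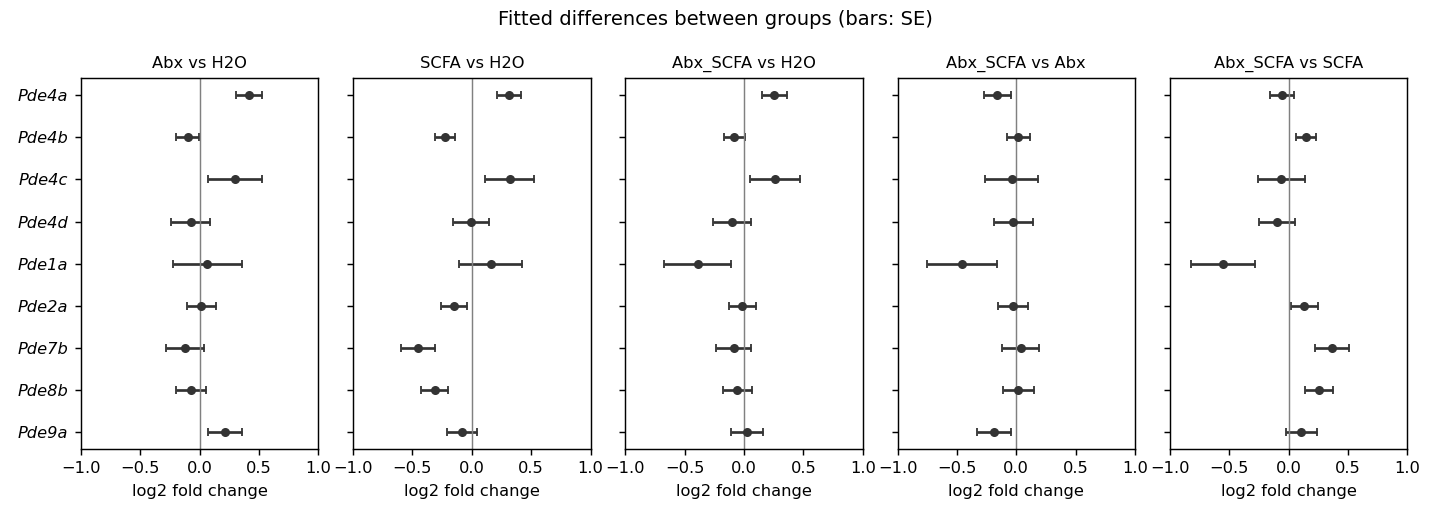
Fitted log2 fold change (horizontal axis) of the 9 genes (vertical axis) in the 5 group comparisons, with SE bars and a line at 0. Pde4a is at 0.41 in Abx vs H2O and at -0.06 in Abx_SCFA vs SCFA, while Pde7b is at -0.45 in SCFA vs H2O.

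Pde7b, a cAMP-specific enzyme that is abundant in striatum and insensitive to rolipram, had 84.8, 108, 90.8, 82.9 and 82.0 CPM in H2O (89.7 ± 10.9, SD, n = 5). Abx libraries had 73.6, 82.6, 99.6 and 73.9 CPM (82.4 ± 12.2, SD, n = 4). SCFA libraries had a lowest level of 46.0, in replicate 2, a median of 66.8 and a highest level of 92.5 CPM (65.5 ± 17.2, SD, n = 6). SCFA replicates 2 and 5, at 46.0 and 48.3 CPM, were the lowest of all 20 libraries, but the highest SCFA library lay within the H2O range. Abx_SCFA libraries had 81.0, 84.9, 84.2, 97.3 and 75.2 CPM (84.5 ± 8.11, SD, n = 5), and replicates 1 and 5 of them lay below every H2O library.

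In SCFA the fitted Pde7b level was 0.730 times that in H2O, a log2 difference of -0.45 ± 0.14 (95% interval -0.75 to -0.16, edgeR adjusted p = 0.247). In Abx_SCFA it was 1.29 times that in SCFA, 0.37 ± 0.14 (95% interval 0.07 to 0.67, adjusted p = 0.732). Neither passed the threshold. Without SCFA replicates 2 and 5 the values were -0.26 ± 0.11 and 0.18 ± 0.11, and fitted with the cortical score the difference of SCFA from H2O was -0.21 ± 0.17. Medium spiny neuron markers moved alongside: 11 of 11 were lower in SCFA than in H2O (median log2 fold change -0.36) and 11 of 11 were higher in Abx_SCFA than in SCFA (median 0.38), with 0 past the adjusted threshold in each. In bulk tissue, fewer cells of a type and less RNA per cell cannot be told apart.

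Pde8b, a high-affinity cAMP enzyme, lay between 117 and 171 CPM in H2O (154 ± 21.9, SD, n = 5) and between 129 and 168 in Abx (146 ± 17.1, SD, n = 4). SCFA libraries ran from 92.0, in replicate 2, to 146 CPM, with a median of 133 (124 ± 21.4, SD, n = 6), and Abx_SCFA libraries from 134 to 164 (148 ± 13.2, SD, n = 5). SCFA was the lowest group by mean, 22.3 CPM under Abx, but its libraries overlapped those of every other group. The log2 difference was -0.31 ± 0.12 in SCFA vs H2O (95% interval -0.55 to -0.07, adjusted p = 0.259) and 0.26 ± 0.12 in Abx_SCFA vs SCFA (95% interval 0.02 to 0.50, adjusted p = 0.732). Without SCFA replicates 2 and 5 these were -0.16 ± 0.10 and 0.11 ± 0.10. Fitted with the cortical score in the model, the difference of SCFA from H2O changed sign, to 0.05 ± 0.10.

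Pde1a, a calcium- and calmodulin-dependent enzyme that hydrolyses both nucleotides, varied most between libraries, with its highest level 3.41 times its lowest. H2O libraries had 47.0, 41.3, 54.0, 56.7 and 33.5 CPM (46.5 ± 9.43, SD, n = 5), and Abx libraries 40.3, 49.8, 35.7 and 68.5 (48.6 ± 14.5, SD, n = 4). SCFA had a lowest library of 28.9, a median of 41.3 and a highest of 96.0 CPM (51.9 ± 25.6, SD, n = 6), and Abx_SCFA had 34.7, 30.6, 34.9, 48.8 and 28.2 (35.4 ± 8.01, SD, n = 5). SCFA replicates 5 and 2, at 96.0 and 68.5 CPM, set the high SCFA mean, and the other SCFA libraries lay among those of Abx_SCFA. The log2 difference of Abx_SCFA from SCFA was -0.55 ± 0.27 (95% interval -1.12 to 0.01, adjusted p = 0.734) with them and -0.05 ± 0.20 without them. In SCFA vs H2O it was 0.16 ± 0.27 with them and turned to -0.34 ± 0.20 without them.

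Pde2a, which hydrolyses both nucleotides and is stimulated by cGMP, had 1036, 904, 945, 807 and 716 CPM in H2O (882 ± 124, SD, n = 5) and 842, 952, 1037 and 730.0 in Abx (890.4 ± 134, SD, n = 4). SCFA ran from 579.6 in replicate 2 to 971 CPM, with a median of 817 (795 ± 129, SD, n = 6). Abx_SCFA libraries had 870.0, 837, 904, 872 and 883 CPM (873 ± 24.3, SD, n = 5). All groups overlapped, and the Abx_SCFA libraries lay closest together, with a coefficient of variation of 2.79% against 14.0% in H2O. No log2 difference of Pde2a exceeded 0.15 in size in the 5 comparisons of groups.

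Pde9a, a cGMP-specific enzyme, averaged 47.5 ± 7.90 CPM (SD, n = 5) in H2O, 55.1 ± 3.87 (n = 4) in Abx, 44.9 ± 7.47 (n = 6) in SCFA and 48.4 ± 8.26 (n = 5) in Abx_SCFA. Its Abx libraries ran from 49.5 to 58.1 CPM and overlapped the upper H2O libraries. The log2 difference of Abx from H2O was 0.21 ± 0.14, which became 0.48 ± 0.14 once the cortical score was in the model. In Abx_SCFA vs SCFA it was 0.11 ± 0.13 (95% interval -0.16 to 0.38, adjusted p = 0.872).

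By count, edgeR called 0 of the 9 genes at an adjusted p of 0.05 in SCFA vs H2O, where it called 0% of all genes. At an unadjusted p of 0.05 the count was 4 of 9, Pde4a higher and Pde4b, Pde7b and Pde8b lower, against 13.8% of all genes. Pde4a enters that count through the H2O libraries by which it was known, so its place there is no separate support. Groups that did not overlap were found for 0 of 9 genes and for 0.537% of all genes. The median log2 fold change of the 9 genes was -0.08, beside -0.0030 over all genes tested. DESeq2 and limma-voom called 0 of the 9 there too.

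In Abx_SCFA vs SCFA the adjusted count was 0 of 9 (0% of all genes) by edgeR, and 0 by DESeq2 and limma-voom. Pde7b and Pde8b, both higher, made 2 of 9 at an unadjusted p of 0.05 (6.78% of all genes), and 0 of 9 genes had groups that did not overlap (0.56% of all genes). The median of the 9 was 0.11, beside -0.012 over all genes. In Abx_SCFA vs H2O the adjusted count was 0 of 9 (0% of all genes) by each of the 3 tools, the unadjusted count was 1 of 9, Pde4a higher (5.56%), and 0 of 9 had groups without overlap (1.42%). That 1 gene, Pde4a, again draws on the H2O libraries by which it was known. Abx_SCFA vs Abx had 0 of 9 by the adjusted count (0%) with each of the 3 tools, 0 of 9 by the unadjusted count (3.19%) and 0 of 9 without overlap (1.2%). The differences with the smallest p there were those of Pde1a (-0.46 ± 0.29), Pde4a (-0.16 ± 0.11) and Pde9a (-0.19 ± 0.14), each with an adjusted p of 0.999. Leaving out 1 library at a time, the Pde1a difference ran from -0.60 to -0.25, the latter without Abx replicate 4. That of Pde4a ran from -0.25, without Abx replicate 2, to -0.11. That of Pde9a ran from -0.25 to -0.10, the latter without Abx_SCFA replicate 4. The Pde4a value in Abx_SCFA vs Abx uses the Abx libraries by which it was known. In Abx_SCFA vs H2O the Pde1a difference was -0.39 ± 0.28 (adjusted p = 0.824), or -0.82 ± 0.33 with the cortical score in the model. Since levels of several of the 9 genes moved together across libraries, a count over them is not a count of separate observations.

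**Figure D3:**
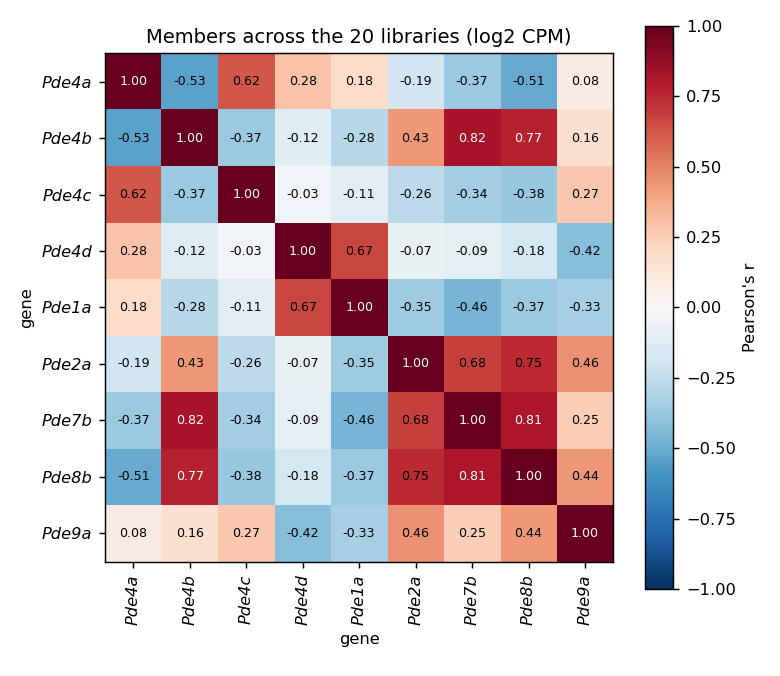
Pearson's r between the log2 CPM of each pair of the 9 genes over the 20 libraries (both axes list the genes, and colour and number give r). Pde4b, Pde7b and Pde8b form a block of r from 0.77 to 0.82, and Pde4a with Pde4b is at -0.53.

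Across libraries the 9 genes did not vary as 1 family. Of 36 pairs, the 8 with Pde4a were not tested because they include the libraries by which it was known, and 6 of the other 28 passed an adjusted p of 0.05 in a permutation test of Pearson's r. Pde4b with Pde7b had r = 0.82 (permutation p = 2.0e-05, adjusted p = 0.00056) and rho = 0.75 (permutation p = 0.00017, adjusted p = 0.00238), with 0.82 within the 400s and 0.84 within the 200s and 300s. Pde7b with Pde8b had r = 0.81 (permutation p = 0.00011, adjusted p = 0.00103) and rho = 0.70, which fell to r = 0.50 without SCFA replicates 2 and 5. The other pairs among these genes and Pde2a were Pde4b with Pde8b (r = 0.77), Pde2a with Pde8b (r = 0.75) and Pde2a with Pde7b (r = 0.68). Pde4d with Pde1a had r = 0.67 (permutation p = 0.00144, adjusted p = 0.00737) and rested on SCFA replicates 5 and 1, since without them r was 0.34. Within the Pde4 family, Pde4a with Pde4c had r = 0.62 (rho = 0.60) and Pde4a with Pde4b had r = -0.53 (rho = -0.36), given without a test.

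The medium spiny neuron score separated the genes in the same way. Pde7b followed it most closely, with r = 0.95 (permutation p = 1e-05, the smallest that 100000 resamples can give, adjusted p = 0.00016 over 16 relations, which leave out Pde4a) and rho = 0.90. Without the 2 libraries farthest from the median score, SCFA replicates 5 and 2, r was 0.85, and it was 0.91 within the 200s and 300s and 0.95 within the 400s. Drd1, the D1 dopamine receptor of medium spiny neurons and a member of that marker list, was also among the 3 genes most like Pde7b, at r = 0.96.

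Pde8b had r = 0.84 with this score (permutation p = 7.0e-05, adjusted p = 0.000373, rho = 0.70), Pde4b had r = 0.76 (permutation p = 7.0e-05, adjusted p = 0.000373, rho = 0.64) and Pde2a had r = 0.75 (permutation p = 0.00019, adjusted p = 0.000608, rho = 0.86). Without SCFA replicates 5 and 2 these were 0.56, 0.56 and 0.80. Within the 200s and 300s they were 0.60, 0.71 and 0.80, and within the 400s they were 0.91, 0.80 and 0.77. Within the 400s without SCFA replicates 2 and 5, r was 0.84 for Pde7b, 0.47 for Pde8b, 0.28 for Pde4b and 0.85 for Pde2a. Pde1a ran the other way, with r = -0.63 (permutation p = 0.00413, adjusted p = 0.0101) but rho = -0.31, and the relation rested on those SCFA libraries: without them r was -0.12. Pde4c also ran against the score, with r = -0.34 (permutation adjusted p = 0.164) and rho = -0.54 (adjusted p = 0.0316). Without SCFA replicates 5 and 2 its r was -0.55 (adjusted p = 0.0359) and its rho -0.57 (adjusted p = 0.0475). Its r was -0.64 within the 200s and 300s (adjusted p = 0.193) and -0.15 within the 400s.

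With the cortical score, Pde8b had r = -0.75 (permutation p = 0.00012, adjusted p = 0.00048) and rho = -0.82, and r was -0.82 without the 2 libraries farthest from the median score, H2O replicates 3 and 1. It was -0.70 within the 200s and 300s and -0.80 within the 400s, where it was -0.41 without SCFA replicates 2 and 5. Pde4b (r = -0.61, permutation p = 0.00441, adjusted p = 0.0101), Pde2a (r = -0.58, permutation p = 0.00653, adjusted p = 0.0131) and Pde7b (r = -0.58, permutation p = 0.00801, adjusted p = 0.0142) also ran against it, while the pooled r of Pde1a was 0.22. Of these, Pde2a no longer passed by r without H2O replicates 3 and 1 (r = -0.49, adjusted p = 0.0732). By rho in that setting, the permutation adjusted p was 0.0638 for Pde4b and for Pde7b, and 0.0475 for Pde2a. Within the 400s without SCFA replicates 2 and 5, r was -0.019 for Pde4b, 0.22 for Pde7b and -0.56 for Pde2a. Within the 400s alone 3 further genes passed by r but not by rho: Pde1a (r = 0.89, permutation p = 0.00031, adjusted p = 0.00279; rho = 0.70, adjusted p = 0.0579), Pde4d (r = 0.74, permutation p = 0.00898, adjusted p = 0.0212; rho = 0.64, adjusted p = 0.0793) and Pde9a (r = -0.77, permutation p = 0.00566, adjusted p = 0.017; rho = -0.74, adjusted p = 0.0578). Without SCFA replicates 2 and 5, which have the highest cortical scores, these r were 0.61, 0.57 and -0.71. Within the 200s and 300s they were -0.27, -0.21 and 0.07. What part the 2 scores have in the differences between groups was not tested beyond the fits given above.

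**Figure D4:**
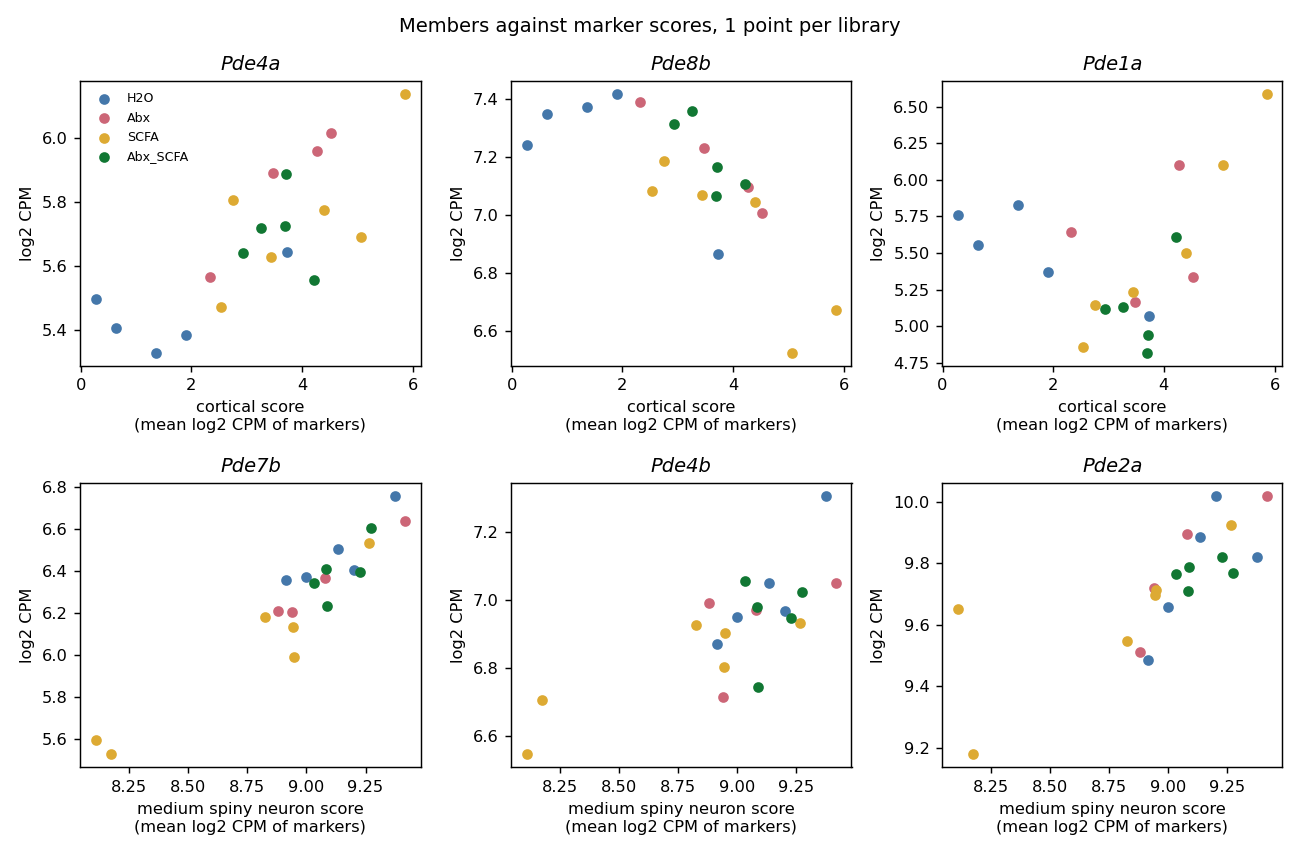
Log2 CPM of 6 of the genes (vertical axes) against the mean log2 CPM of cortical markers or of medium spiny neuron markers (horizontal axes), with 1 point per library coloured by group. SCFA replicates 5 and 2 stand at the high end of the cortical score (5.86 and 5.07) and at the low end of the medium spiny neuron score (8.11 and 8.17).

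Each gene was also set against the 11683 other genes with a mean of at least 1 CPM, to name those with the most similar pattern by Pearson's r over the 20 libraries. Pde4a was nearest to Ptprs (0.95), a receptor tyrosine phosphatase, to Rimbp2 (0.92), a presynaptic scaffold protein, and to Plekhg5 (0.92). For Pde4b they were Alcam (0.91), a cell adhesion molecule, Filip1 (0.91) and Ntn1 (0.90), the guidance cue netrin. Pde7b was nearest to Dgkb (0.97), a diacylglycerol kinase, followed by Drd1 and Ppp4r4, both at 0.96. Pde8b lay nearest to Grb10 (0.94), to Abat (0.93), the GABA transaminase, and to Necab2 (0.92), a calcium-binding protein. Pde2a lay nearest to Rogdi (0.94), Mink1 (0.91) and Pitpnm2 (0.91). Pde1a was nearest to Ncam2 (0.89), an adhesion molecule, Brinp3 (0.89) and Rasgrf2 (0.88), an exchange factor for Ras. The genes nearest to Pde4d were Ap3m2 (0.88), Tox4 (0.86) and Atf2 (0.85), a transcription factor that binds cAMP response elements. Pde4c was nearest to Myo1c (0.85), Arhgap1 (0.84) and Lama5 (0.82), and Pde9a to Xrcc1 (0.94), a DNA repair protein, Klhl17 (0.93) and Snrnp70 (0.91). These likenesses are descriptions over shared libraries and carry no test.

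Other phosphodiesterases and the cyclases that make cAMP and cGMP did not pass either. Of 15 other listed phosphodiesterases 14 were in the table and 10 were tested. Of 23 listed symbols of cyclases and guanylyl cyclase receptors 20 were in the table and 17 were tested. The 23 symbols include Gucy1a1 and Gucy1b1, newer names of Gucy1a3 and Gucy1b3, which were in the table under the older names. In each comparison where a test was made, edgeR called 0 of the 10 and 0 of the 17 at an adjusted p of 0.05. It called 0% of all genes there too. In SCFA vs H2O, 3 of the 10 phosphodiesterases had positive and 7 negative fold changes (median -0.11), with 1 higher and 2 lower at an unadjusted p of 0.05 (13.8% of all genes in either direction). Of the 17 cyclases 9 had positive and 8 negative fold changes (median 0.02), with 6 higher and 2 lower at that p (13.8% of all genes). The phosphodiesterases nearest to a call there were Pde1c, calcium- and calmodulin-dependent, at 20.7 CPM in SCFA and 29.6 in H2O (log2 difference -0.52 ± 0.17, adjusted p = 0.247), and Pde5a, specific for cGMP, at 9.44 and 6.16 (0.62 ± 0.22, adjusted p = 0.252). Among cyclases they were Gucy1a3, a subunit of the nitric oxide receptor guanylyl cyclase, at 122 and 164 CPM (-0.43 ± 0.14, adjusted p = 0.247), and Adcy6, an adenylyl cyclase, at 65.9 and 52.7 (0.32 ± 0.10, adjusted p = 0.247).

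In Abx_SCFA vs SCFA, 5 of the 10 phosphodiesterases were higher and 5 lower (median 0.04), with 0 of 10 at an unadjusted p of 0.05 (6.78% of all genes). Pde1b, the striatal relative of Pde1a, had 784 CPM in Abx_SCFA and 629.8 in SCFA (log2 difference 0.32 ± 0.16, adjusted p = 0.734). Pde3b, a cAMP enzyme inhibited by cGMP, had 32.5 and 35.7 CPM (-0.13 ± 0.07, adjusted p = 0.735). Of the 17 cyclases 5 were higher and 12 lower (median -0.13), with 1 higher and 3 lower at that p (6.78% of all genes). Adcy8, a calcium-stimulated adenylyl cyclase, had 7.16 and 10.5 CPM (-0.56 ± 0.25, adjusted p = 0.732). Gucy2e, a membrane guanylyl cyclase, had 0.187 and 0.501 CPM (-1.39 ± 0.44, adjusted p = 0.732), close to the 0.115 to 0.171 CPM that 3 counts amount to in a library.

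None of the genes nearest to a call in the other comparisons passed where a test was made. In Abx, given without a test, Pde8a had 23.7 CPM against 35.1 in H2O (log2 difference -0.56 ± 0.27), Pde1c 23.2 against 29.6 (-0.35 ± 0.19), Npr1, the receptor of atrial natriuretic peptide, 24.6 against 40.2 (-0.70 ± 0.29) and Npr2, the receptor of C-type natriuretic peptide, 31.6 against 25.6 (0.31 ± 0.12). In Abx_SCFA vs H2O, each with an adjusted p of 0.815, Pde3b differed by -0.15 ± 0.07, Pde5a by 0.45 ± 0.23, Npr1 by -0.46 ± 0.27 and Gucy1a2, a subunit of the soluble guanylyl cyclase, by -0.25 ± 0.11. In Abx_SCFA vs Abx, each with an edgeR adjusted p of 0.999, Pde11a differed by -0.54 ± 0.35 and Pde3a by 0.18 ± 0.15. The membrane cyclases Gucy2e and Gucy2g differed by -1.10 ± 0.48 and -1.05 ± 0.61, with that same adjusted p. Gucy2e had 0.187 CPM in Abx_SCFA and 0.414 in Abx, and Gucy2g had 0.477 and 1.01. List medians in Abx vs H2O were -0.02 and 0.08, in Abx_SCFA vs H2O -0.04 and 0.0056, and in Abx_SCFA vs Abx 1.7e-05 and -0.08, for phosphodiesterases and cyclases in turn. At an unadjusted p of 0.05, Abx_SCFA vs H2O had 1 of the 10 phosphodiesterases and 1 of the 17 cyclases, both lower (5.56% of all genes), and Abx_SCFA vs Abx had 0 of the 10 and 1 of the 17, lower (3.19% of all genes).

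**Figure D5:**
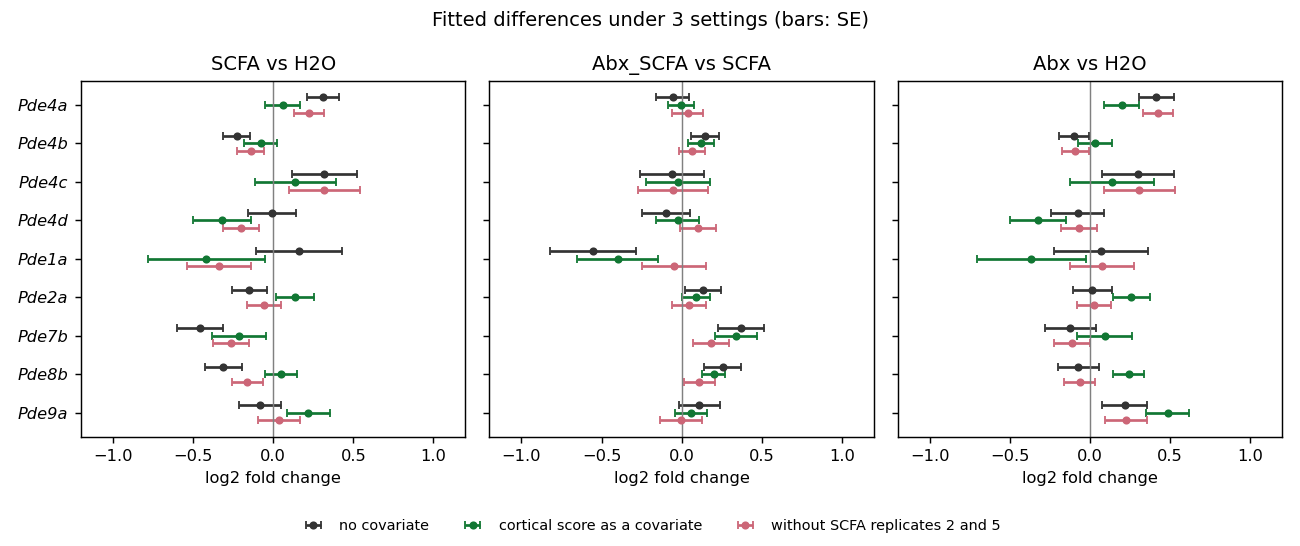
Fitted log2 fold change (horizontal axis, SE bars) of the 9 genes (vertical axis) in 3 comparisons, with the groups alone, with the cortical score added to the model, and without SCFA replicates 2 and 5. In SCFA vs H2O, Pde4a is at 0.31, 0.06 and 0.22 and Pde8b at -0.31, 0.05 and -0.16 under these settings.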

How the data were processed

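The values are gene-level counts of 20 libraries, as the authors deposited them. STAR 2.4.0, the build Rnor_6.0, FastQC 0.11.6 and limma are named per the submitters' processing notes. For the counting tool, annotation and strand setting, nothing is given in the sources used here. Overlapping or antisense genes therefore cannot be separated. No 2 libraries agreed within sampling noise (chi-square per gene at least 6.66 in 190 pairs).

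Counts were tested with the quasi-likelihood test of edgeR 4.0.16 (R 4.3.3, TMM scaling, robust dispersion, filterByExpr with 10 counts, Benjamini-Hochberg adjustment over 12846 genes) in 1 model of the 4 treatment groups. Intervals are 95% intervals. CPM uses TMM-adjusted library sizes and is not per length, so levels of different genes were not compared. Log2 CPM used a prior count of 2. Gene-level counts do not separate isoforms. A count of 0 in a library allows 3 counts, or 0.115 to 0.171 CPM, for counting error only.

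Correlations used log2 CPM and two-sided permutation tests, exact below 10 libraries. The edgeR steps were checked on simulated counts with the same dispersion for all genes and no shift in cell type makeup. The permutation tests, DESeq2 and limma-voom were not checked in that way. The 9 genes and all lists were chosen with earlier results of these data known. The text gives every one of the 9 genes, the genes nearest to each by r, and the listed genes with the smallest p. DESeq2 1.42.0, limma 3.58.1 (voom), other scaling and filters, covariates and left-out libraries were alternatives. Leaving out SCFA replicates 2 and 5 together was chosen after seeing the data.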

Additional observations from a re-analysis of the deposited data

How the results depend on the processing

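For the 3 genes with the smallest p in each comparison, 485 of 486 log2 fold changes under alternative settings kept their direction and their side of the threshold, and Pde8b in SCFA vs H2O became 0.049 ± 0.10 with the cortical score in the model. Over all 9 genes and 6 comparisons the sign changed in 67 of 1458 values, 15 of them with that score in the model. In 4 of the 67 the original value was larger than its SE: with the score in the model, Pde8b in SCFA vs H2O (above), Pde2a in SCFA vs H2O (0.14 ± 0.12), Pde4b in Abx vs H2O (0.03 ± 0.10) and the interaction of Pde8b (-0.04 ± 0.13). No alternative called any of the 9 genes (0 in 162 counts). These counts and the 486 values above include Abx vs H2O and the interaction, where values are a description and carry no test. In each comparison where a test was made, the main edgeR fit called 0% of all genes. Leaving out 1 library at a time, the log2 difference of Pde4a in Abx vs H2O ran from 0.36 to 0.51, that of Pde7b in SCFA vs H2O from -0.58 to -0.37 and that of Pde1a in Abx_SCFA vs SCFA from -0.69 to -0.28. Within the 9 libraries of the 200s and 300s, and with Pde4a left untested, 0 genes passed by permutation of Pearson's r with the cortical score. With the medium spiny neuron score 1 passed by r, Pde7b. Over all libraries these counts by r were 4 and 5. By Spearman's rho within the 200s and 300s, Pde2a also passed with the medium spiny neuron score (rho = 0.85, permutation adjusted p = 0.0486). Over all genes DESeq2 called 1 gene in Abx vs H2O, 10 in SCFA vs H2O, 1 in Abx_SCFA vs H2O and 3 in Abx_SCFA vs SCFA, and limma-voom called 0 in each. No paired analysis was possible because the replicate numbers only name libraries and no rat number is shared between groups. Pde4c had the fewest counts, from 57 per library, and p-values measure the spread between rats, some of which may share a cage.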

Other observations

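Outside the 9 genes, the phosphodiesterases of photoreceptors were almost uncounted in the accumbens: Pde6a had at most 3 counts, Pde6b and Pde6c at most 10 and Pde6h at most 17 in any library. Pde6d, whose product carries prenylated proteins, was different, at 36.8 to 50.1 CPM. Pde10a, the striatal enzyme that hydrolyses both nucleotides, ran from 208 to 489 CPM and Pde1b from 414.3 to 978. Pde11a, which also hydrolyses both, ran from 1.101 to 4.35 CPM. A test of the gap at each end of a group against the range of the group flagged 0 of 36 combinations of gene and group. It looks for 1 distant library, and 2 that lie close together can hide each other. SCFA replicates 2 and 5 lay so for Pde7b, at 46.0 and 48.3 CPM.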
